A study of Mus musculus with 18 samples.

Results

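The genes of the proteasome were examined in the catalog of accessible chromatin of mouse bone marrow-derived macrophages (BMDMs). Members were the protein-coding genes of GENCODE release M21 on mm10 whose symbol starts with Psma, Psmb, Psmc, Psmd, Psme, Psmf or Psmg followed by a number. The rule found 50 of 21938 protein-coding genes, of which 5 are the immunoproteasome genes Psmb8, Psmb9, Psmb10, Psme1 and Psme2 and 45 are other members. ATAC-seq libraries report accessibility through the transposase Tn5, which cuts exposed DNA and leaves adapters there. The BMDMs were wild type and came from male C57/BL6 mice aged 6 to 8 weeks. All cultures received the vehicle DMSO for 1 h, and were then left untreated or given LPS (lipopolysaccharide, sensed by TLR4) or IL-4 (a cytokine of type 2 immunity), each at 10 ng/mL, for 30 min, 1 h, 2 h or 4 h. The 18 libraries formed 9 groups of 2 libraries. Whether the libraries of a group came from separate cultures or mice is not given in the sources used here.

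The deposited data were 3 lists that combine the 18 libraries: 82391 reference peaks, 59617 extended regions that join the peaks with their flanks, and 84660 summits with a score each. No list had a column per library, so that stimuli, time points and replicate spread were not analysed here, and the depth is unknown. The score is a single value per summit whose scale is not stated, and no difference in score between genes could be tested. In such a pool, more cells with an open site and more insertions per cell cannot be told apart. The macrophage label was checked with 8 macrophage genes and 8 genes of other cell types: all 8 macrophage genes had a peak at a start site (best scores 1176 to 2021), against 1 of 8 of the others (Col1a1, a collagen chain of fibroblasts, score 613).

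The proteasome degrades ubiquitin-tagged proteins inside a barrel, the 20S core, made of outer alpha rings and inner beta rings that carry the catalytic sites. The 19S regulatory particle caps the core, with ATPases that unfold the substrate and non-ATPase subunits that bind and remove ubiquitin. Interferons and inflammatory signals lead to the replacement of the catalytic beta subunits by immunosubunits and raise the PA28 activator, which changes the peptides that antigen-presenting cells such as macrophages load on MHC class I.

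Almost all proteasome genes had an accessible start site in the combined list of BMDM peaks. A reference peak lay within 1000 bp of an annotated start site in 47 of 50 members (94%), against 56.5% of all protein-coding genes. All 5 immunoproteasome genes had such a peak, and so did 42 of 45 other members (93.3%). The 3 members without one are not parts of the general proteasome. Psma8, an alpha subunit of the testis proteasome, had its nearest peak 22838 bp away. Psmb11, the beta subunit of the thymus proteasome, had its nearest peak 3125 bp away, and that peak was the start site peak of its neighbour Psmb5. Psme2b, an intronless copy of Psme2, had its nearest peak 31469 bp away. Reads of 76 bases can fail to place in copied sequence: 6 of 26 stretches of that length around the start of Psme2b occurred more than once in the genome, against 0 of 26 at Psma8 and 0 of 26 at Psmb11. Whether read placement had a part in any missing peak was not tested. The 76 bases centred on the best summit occurred once for all 47 members that had a peak.

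The best summit score over the start sites of a gene was used to describe how prominent its peak was. Its median was 1518 over the 47 members (interquartile range 1188 to 1806, range 923 to 2271) and 1456 over 12402 genes with a start site peak (interquartile range 1071 to 1799). Of the 47 members, 24 were at or above the median of all genes, comprising 3 of 5 immunoproteasome genes and 21 of 42 other members. All genes ranged from 140 to 2781, and 17.5% of them scored below Psmc1, the lowest member at 923. The median was 1594 for the immunoproteasome genes (range 1357 to 2271) and 1468 for the other members (range 923 to 2206). The immunoproteasome genes had more annotated start sites over which the best score was taken, with a median of 7 per gene, against 4 for the other members and 3 for all genes. With only the most upstream start of each gene, both medians were 1418. Scores took 219 distinct values over the whole list, so that several members share a value.

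**Figure D1:**
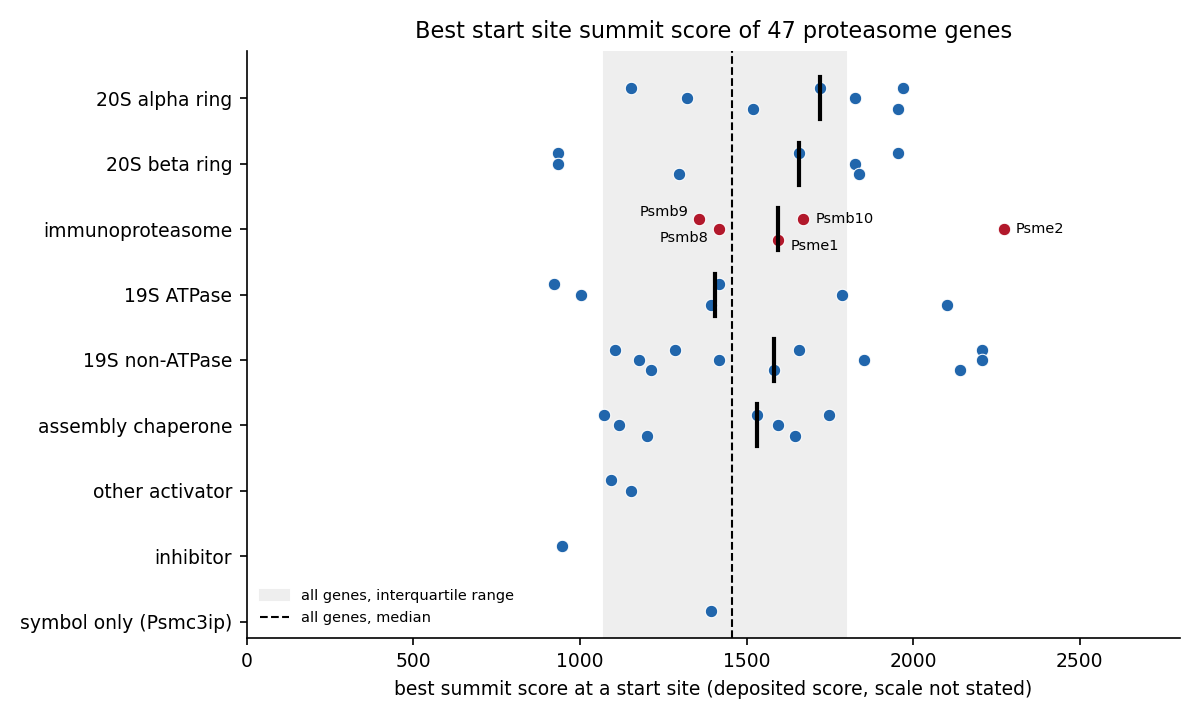
Best start site summit score (x axis, deposited score of unstated scale) of the 47 proteasome genes with a start site peak, by role (y axis). Each point is a gene, immunoproteasome genes in red, black bars are medians of roles with more than 2 genes, and the grey band and dashed line are the interquartile range and median of all 12402 genes with a start site peak. Psme2 is the highest point at 2271, and the other 4 immunoproteasome genes lie between 1357 and 1670.

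The immunoproteasome genes were considered first. Psme2, the beta chain of PA28, had the highest score of all members at 2271, and 98.5% of genes with a start site peak scored below it. It had 3 start site peaks, with best scores of 1036, 2271 and 2008. The 2008 summit was at -550 bp from the closest start of Psme2 but 45 bp from the start of the neighbouring gene Rnf31. Its strongest summit lay 1 bp before an annotated start. Psme1, the alpha chain of PA28, scored 1594 and had a further peak of 234 inside the gene. Psmb10, the immunosubunit with trypsin-like activity, scored 1670 and had 2 further peaks of 1025 each. The 1670 summit lay 1338 bp inside the gene, at the start of noncoding transcripts, whereas the start of the coding transcript scored 1025. Psmb8, the immunosubunit with chymotrypsin-like activity, scored 1418 with a second peak of 911. Psmb9, the immunosubunit that replaces the caspase-like site, scored 1357 in a peak of 658 bp with 2 summits, and had a second peak of 341. That wide peak also spanned the start of Tap1, which encodes a chain of the transporter that moves peptides into the endoplasmic reticulum, and Tap1 had the same best summit and score. All 5 genes had 2 or more start site peaks, as did 26 of the 47 members in all, against 52.3% of genes with a start site peak.

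Part of the DNA at these summits is shown because base composition and motifs at the summits are described in what follows, over the whole 100 bp on each side. The stretches run 5′ to 3′ on the strand of the gene, lie within 100 bp of the best summit, and were read from the RefSeq assembly GRCm38.p6 (mm10 coordinates). They were shortened so that at most 30 bases lie in an annotated UTR. This leaves out the summit itself in Psme1, whose stretch ends before it, and in Psmb9, whose stretch starts after it. Capitals mark letters of any of the 11 motifs listed with the motif counts. The Psmb8 stretch is chr17:34197598-34197750 on the + strand and ends in the first exon. The Psmb9 stretch, chr17:34187368-34187397 on the - strand, lies in the first exon of a coding transcript with a more upstream start. The Psmb10 stretch is chr8:105937009-105937206 on the - strand, inside the gene, the Psme1 stretch is chr14:55578324-55578389 on the + strand, and the Psme2 stretch is chr14:55591084-55591214 on the - strand.
Psmb8: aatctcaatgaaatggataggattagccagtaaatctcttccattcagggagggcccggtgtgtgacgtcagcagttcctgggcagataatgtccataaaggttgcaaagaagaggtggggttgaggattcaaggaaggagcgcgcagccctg
Psmb9: tgcgcgatgatGGGGCGGGGcctcagtctg
Psmb10: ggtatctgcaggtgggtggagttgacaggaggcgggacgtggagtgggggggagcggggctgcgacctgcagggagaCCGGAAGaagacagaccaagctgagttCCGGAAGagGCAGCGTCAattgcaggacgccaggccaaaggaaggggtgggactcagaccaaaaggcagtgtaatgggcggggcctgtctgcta
Psme1: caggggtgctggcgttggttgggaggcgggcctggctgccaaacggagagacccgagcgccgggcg
Psme2: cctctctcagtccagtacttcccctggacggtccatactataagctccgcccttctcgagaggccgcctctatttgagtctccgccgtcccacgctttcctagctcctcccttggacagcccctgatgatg
No motif was found within 100 bp of the summits of Psmb8 and Psme2. The Psme1 stretch ends before the IRF motif of that gene, which is printed with the IRF sites. The Psmb9 stretch has an SP/KLF box and leaves out its CCAAT box, and the Psmb10 stretch has 2 ETS boxes and an antioxidant response element in reverse. CpG dinucleotides were sparser at these summits than at most proteasome genes. The ratio of observed to expected CpG within 100 bp of the best summit was 0.538 for Psme2, 0.539 for Psmb10, 0.619 for Psmb9, 0.679 for Psme1 and 0.745 for Psmb8, with a median of 0.619. The median was 0.904 for the other members and 0.801 for all genes with a start site peak. GC content differed less, with medians of 62.2% for the immunoproteasome genes, 63.2% for the other members and 63.7% for all genes. These are properties of the reference sequence at single summits, given without a test.

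The immunosubunits were set beside the constitutive subunits that they replace. Psmb8 scored 1418 and its counterpart Psmb5 934. Psmb10 scored 1670 at its internal summit and 1025 at its coding start, on either side of its counterpart Psmb7 with 1296. Psmb9 ran the other way, with 1357 against 1657 for Psmb6. The PA28 chains scored 1594 and 2271, and Psme3, which forms the nuclear form of PA28, scored 1094. No common direction was thus found over the catalytic pairs. The stretches of the constitutive subunits are chr14:54617993-54618111 on the - strand for Psmb5, chr11:70525188-70525388 on the + strand for Psmb6 and, inside the first exon, chr2:38643947-38643976 on the - strand for Psmb7.
Psmb5: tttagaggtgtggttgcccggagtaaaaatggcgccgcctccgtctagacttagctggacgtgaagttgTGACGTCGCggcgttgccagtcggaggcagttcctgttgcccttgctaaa
Psmb6: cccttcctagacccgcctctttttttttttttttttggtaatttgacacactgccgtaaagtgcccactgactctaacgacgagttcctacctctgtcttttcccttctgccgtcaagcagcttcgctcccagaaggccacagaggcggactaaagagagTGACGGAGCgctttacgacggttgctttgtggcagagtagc
Psmb7: ctctcgcggcgCCGGAAGtgctaagttctt
Psmb5 and Psmb6 each have an antioxidant response element in capitals. CNC factors such as NRF1 (Nfe2l1), which drive proteasome genes when proteasome activity is low, read these letters. An element lay within 100 bp of the best summit in 6 of 47 members, Psmb10 included. That is 12.8%, against 12.1% of all genes with a start site peak. Psmb7 has an ETS box, and its stretch starts after the summit. The stretches leave out an AP-1 motif of Psmb5 and a YY1 motif of Psmb7.

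Among the other core subunits, the alpha ring, which gates the entry of substrates, had a median of 1721 over the 7 genes with a peak. Psma6 (1969), Psma5 (1955) and Psma4 (1825) were highest, followed by Psma1 (1721), Psma3 (1518), Psma2 (1320) and Psma7 (1153). The beta ring had a median of 1657 over 7 genes. Psmb3 scored 1955, Psmb1 1838 and Psmb2 1825, whereas Psmb4, a noncatalytic subunit, scored 934 as Psmb5 did. The beta ring therefore held both genes above the upper quartile of all genes and genes below the lower one.

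In the 19S particle, the 6 ATPase genes had a median of 1406 and spanned almost the whole range of members. Psmc6 scored 2100 and Psmc4 1786, Psmc3 and Psmc2 scored 1418 and 1394, and Psmc5 and Psmc1 scored 1002 and 923. Psmc1 was the lowest of all 47 members. The 11 non-ATPase genes had a median of 1581. The lid subunits Psmd3 and Psmd8 scored 2206 each, followed by Psmd11 (2140) and Psmd12 (1851). The ubiquitin receptor Psmd4 scored 1657, and Psmd7, the partner of the deubiquitinase Psmd14, scored 1581. Psmd14 itself had the lowest score of the non-ATPase genes, 1106. The scaffold subunits Psmd2 and Psmd1 scored 1418 and 1212, and the lid subunits Psmd13 and Psmd6 scored 1284 and 1176.

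The 7 assembly chaperones had a median of 1531. Those of the 19S base, Psmd5, Psmd9 and Psmd10, scored 1747, 1644 and 1594, and those of the 20S core, Psmg1, Psmg4, Psmg2 and Psmg3, scored 1531, 1200, 1117 and 1071. The activator Psme4 (PA200) scored 1153, and the regulator Psmf1 (PI31), named as an inhibitor, scored 945. Psmc3ip met the symbol rule with a score of 1394 but encodes a factor of meiotic recombination, not a proteasome subunit. Each base chaperone scored above each core chaperone, which is a description of 7 single values.

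Start site summits sat close to annotated starts. The median distance between the best summit and the closest start was 29 bp over the members and 66 bp over all genes with a start site peak. It was at most 100 bp in 43 of 47 members, against 65.4% of all genes. The summit lay before the closest start in 34 of 47 members, a share near the 74.7% of all genes. Because a gene with many transcripts has many starts, the chosen start matters. In 6 of 47 members the best summit lay over 1000 bp from the most upstream start, against 15.7% of all genes. These were Psmb10, Psma6, Psmd1, Psmd5, Psmd9 and Psmf1. The 1969 summit of Psma6 lay 14506 bp inside the gene, and no peak was found at its RefSeq start. The 1212 summit of Psmd1 lay 46441 bp inside the gene, 11 bp from another annotated start of Psmd1. It was 1142 bp from the most upstream start of the serotonin receptor gene Htr2b. The RefSeq start of Psmd1 scored 1059. In contrast, the Psmd9 summit lay 58792 bp after the most upstream GENCODE start but 15 bp from its RefSeq start. With RefSeq starts, which were added after seeing the data, 45 members had a peak and 41 of them kept the same best score.

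Several proteasome genes share their start region with a neighbour. A coding gene on the other strand started within 1000 bp of the most upstream start of 12 of 50 members (2 of 5 immunoproteasome genes and 10 of 45 others), against 10.9% of all protein-coding genes. The immunoproteasome pairs were Psmb9 with Tap1, 211 bp apart, and Psme2 with Rnf31, a subunit of the linear ubiquitin ligase complex, 595 bp apart. The closest pairs were Psmc2 with Dnajc2 (32 bp), Psma2 with Mrpl32 (75 bp), Psmc5 with Ftsj3 (75 bp) and Psma7 with Ss18l1 (76 bp). The best peak of 13 of 47 members lay within 1000 bp of another coding gene's most upstream start, against 20.3% of all genes with a start site peak, and such a peak cannot be assigned to either gene by position.

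The surroundings of the genes were described by the number of extended regions within 50 kb of the most upstream start. The median was 7 for the 50 members (range 2 to 19), 9 for the immunoproteasome genes, 7 for the other members (range 2 to 13) and 4 for all 21938 protein-coding genes (interquartile range 1 to 8). Counts include any region at the gene's own start, and 94% of members but 56.5% of all genes had a start site peak. Psmb8 had 19 regions, Psmb9 18, Psme1 9, Psme2 9 and Psmb10 5. Psmb8 and Psmb9 had more than any of the 45 other members, and their neighbours Tap2 and Tap1 also had 19 and 18. Psmb10 was below the median of members. This place of Psmb10 depended on the window, since it had 2 regions within 20 kb and 19 within 100 kb, where the median of the other members was 12 and Psme1 and Psme2 had 16 each. Fewer regions than Psmb8 were found around 99.8% of coding genes, than Psmb9 around 99.7%, than Psme1 or Psme2 around 79.1% and than Psmb10 around 50.6%. The genes with the next highest numbers were Psma6 and Psmc3ip with 13 each and Psmb3 and Psmb6 with 12 each, and Psma2, Psmc4 and Psmd10 had 2 each.

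**Figure D2:**
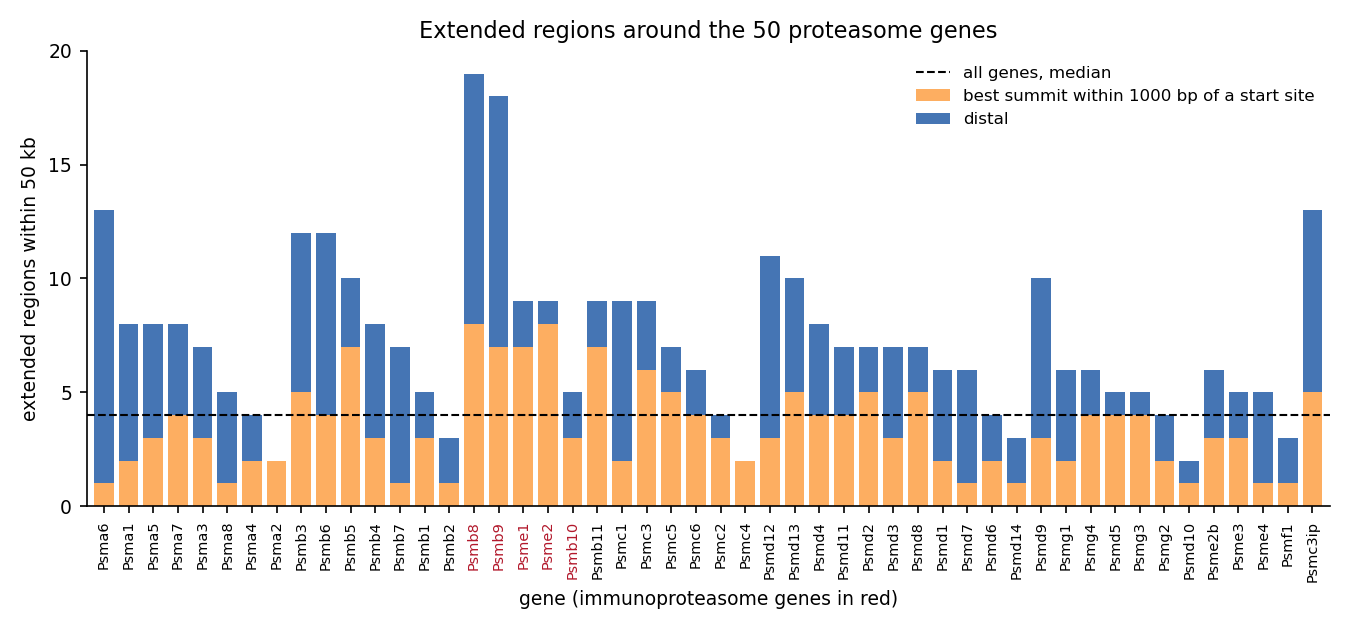
Number of extended regions (y axis) that overlap 50 kb on each side of the most upstream start of each of the 50 proteasome genes (x axis, grouped by role, immunoproteasome genes in red). Orange parts are regions whose best summit is within 1000 bp of any annotated start site, blue parts are distal regions and the dashed line is the median of all coding genes, 4. Psmb8 with 19 and Psmb9 with 18 are the tallest bars, and their blue parts are 11 each, below the 12 of Psma6.

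The 19 regions of Psmb8 are not independent of the 18 of Psmb9. Their most upstream starts are 9957 bp apart in the MHC class II region, and 17 regions were in both windows and 20 in either. Psme1 and Psme2, 12990 bp apart, shared 8 regions of 10, and Psmb5 and Psmb11, 3411 bp apart, shared 9 of 10. The 5 immunoproteasome genes thus stand for 3 loci. These loci are gene-rich: the median number of other coding gene starts within 50 kb was 6 for the immunoproteasome genes, 2 for the other members and 2 for all genes. Around Psmb8 and Psmb9 these included Tap1 and Tap2, H2-DMb1, H2-DMb2 and H2-Ob, which serve antigen presentation, and around Psme1 and Psme2 they included Irf9, the DNA-binding subunit of the interferon-activated complex ISGF3.

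The regions were then split by whether their best summit lay within 1000 bp of any annotated start. The immunoproteasome genes had a median of 7 regions at start sites and 2 distal regions, against 3 and 3 for the other members and 1 and 2 for all genes. Distal regions numbered 11 for Psmb8, 11 for Psmb9, 2 for Psme1, 1 for Psme2 and 2 for Psmb10, and Psma6 had the most of all members with 12. With distal regions only, the order of the medians of the immunoproteasome genes and the other members was therefore reversed. Psmb8 and Psmb9 still had more distal regions than each other member except Psma6. The number of gene starts in the windows was not adjusted for, and its part in the counts was not tested.

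**Figure D3:**
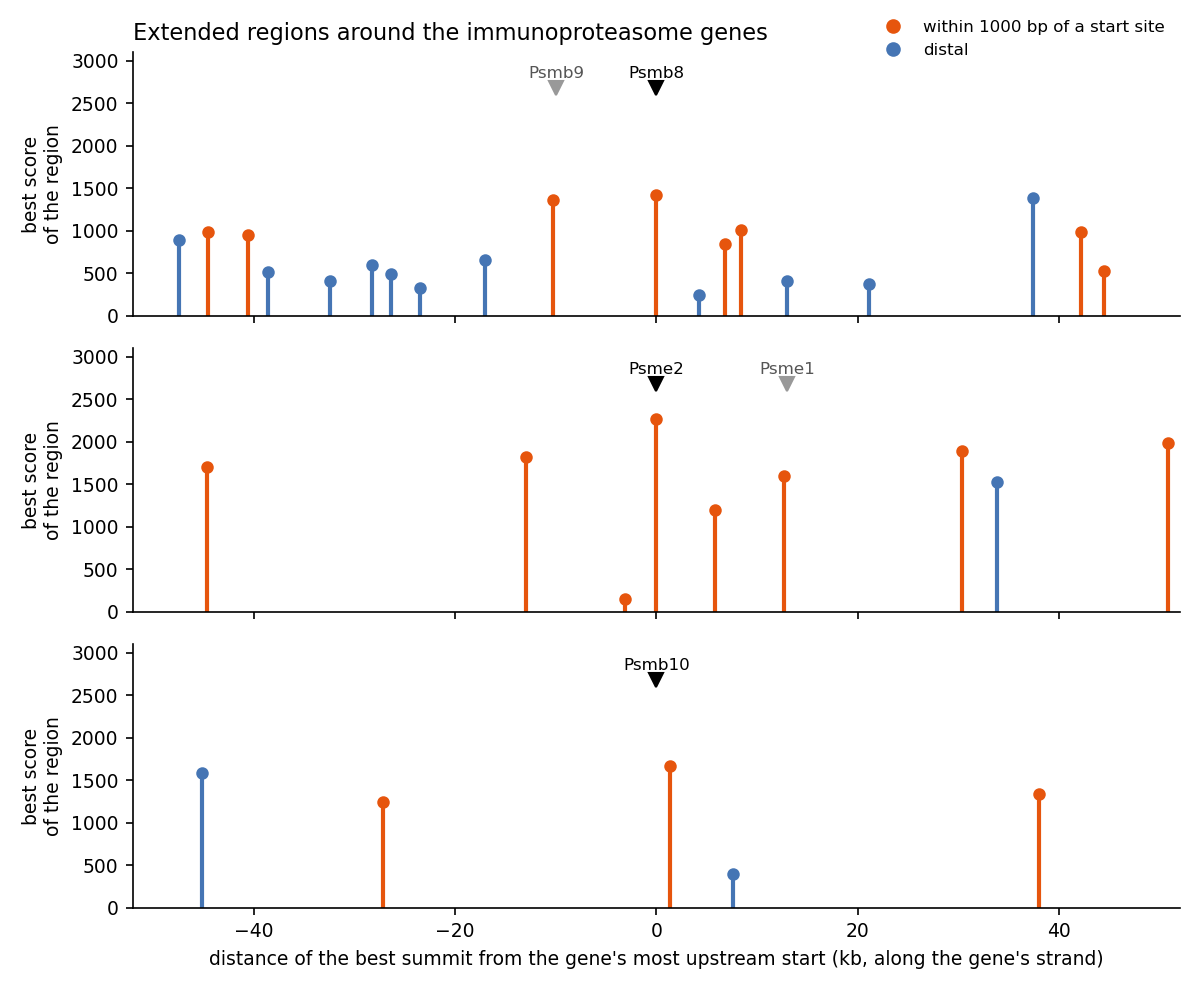
Extended regions within 50 kb of Psmb8, Psme2 and Psmb10, plotted by the distance of the best summit from the gene's most upstream start along its strand (x axis, kb) and by the best score in the region (y axis, deposited score). Orange marks regions within 1000 bp of a start site, blue marks distal regions, black triangles mark the start of the named gene and grey triangles the neighbouring Psmb9 and Psme1. The Psmb8 window holds 19 regions, 11 of them distal, and the Psmb10 window holds 5.

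Most distal regions of the Psmb8 window had modest scores. The highest, 1381, lay 37433 bp after the start of Psmb8 and the next, 889, lay at -47403 bp. The others ranged from 250 to 654. The lowest of them, at 250, lay 4218 bp after the start and held an IRF motif. In the Psme1 window the distal regions scored 1531 and 421, and in the Psmb10 window 1581 and 402.

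Consensus motifs of 11 factors or families were counted within 100 bp of the best start site summit of the 47 members, on both strands. They were IRF (GAAANNGAAA), STAT6 (TTCNNNNGAA), NF-kB (by its usual degenerate consensus), the antioxidant response element ARE (TGACNNNGC), the CCAAT box of NF-Y, the ETS box (CCGGAAG), PU.1 (GAGGAAGT), NRF1 (GCATGCGC), SP/KLF (GGGGCGGGG), YY1 (AAGATGGCG) and AP-1 (TGANTCA). An ARE can overlap an AP-1 motif. NRF1 in this list is the nuclear respiratory factor, which is not the CNC factor of the same name. None of the 11 was found at 8 of the 47 summits, 2 of them of immunoproteasome genes, against 27% of all genes with a start site peak.

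The motif that was most common among the members was the ETS box, found at 19 of 47 summits (40.4%), against 16.8% of all genes with a start site peak. It was present at 1 of 5 immunoproteasome genes, Psmb10, and at 18 of 42 other members. The summits of Psmb10 and Psma6 lay inside the gene, 1338 and 14506 bp after the most upstream start. The coding start of Psmb10 was not scanned. By role, the ETS box was found at 11 of 17 genes of the 19S particle (4 of 6 ATPases and 7 of 11 non-ATPases). It was found at 2 of 14 genes of the 20S alpha and beta rings, and this split was made after seeing the data. CpG-rich starts hold this box more often: among genes with a CpG ratio of at least 0.6 at the summit the share was 20.8%, and 42 of 47 members had such a ratio, against 74% of all genes with a start site peak. Within 50 bp of the summit, 14 members (29.8%) had the box, against 10.2% of all genes, and within 200 bp, 20 (42.6%), against 21.7%. The 22 boxes lay a median of 23 bp from the closest start, 18 of them before it. They are shown for 4 genes with 1 or more capitals, at chr11:80428445-80428644 on the + strand for Psmd11, chr8:107588435-107588566 on the - strand for Psmd7, chr12:55398628-55398804 on the + strand for Psma6 and chr14:45329598-45329798 on the + strand for Psmc6.
Psmd11: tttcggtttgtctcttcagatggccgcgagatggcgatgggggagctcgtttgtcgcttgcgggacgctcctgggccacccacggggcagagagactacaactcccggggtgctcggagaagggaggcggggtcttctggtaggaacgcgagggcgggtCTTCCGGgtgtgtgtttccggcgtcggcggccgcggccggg
Psmd7: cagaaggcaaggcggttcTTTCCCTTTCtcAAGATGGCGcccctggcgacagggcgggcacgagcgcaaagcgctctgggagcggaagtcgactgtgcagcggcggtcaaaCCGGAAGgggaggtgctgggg
Psma6: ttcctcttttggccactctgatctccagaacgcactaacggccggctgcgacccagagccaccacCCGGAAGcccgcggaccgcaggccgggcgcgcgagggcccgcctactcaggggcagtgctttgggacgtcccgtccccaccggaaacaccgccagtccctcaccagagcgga
Psmc6: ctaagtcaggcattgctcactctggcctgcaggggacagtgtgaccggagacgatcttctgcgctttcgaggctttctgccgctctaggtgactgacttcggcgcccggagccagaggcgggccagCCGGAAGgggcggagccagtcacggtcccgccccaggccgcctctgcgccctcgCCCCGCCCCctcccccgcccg
In Psmd11 the box reads in reverse, as CTTCCGG. Psmd7 holds an IRF motif and a YY1 motif before its ETS box, and Psmc6 holds an SP/KLF box in reverse after it.

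Motifs of NF-kB and AP-1, which LPS activates, of STAT6, which IL-4 activates, and of the macrophage factor PU.1 were counted next. No member had an NF-kB motif (0 of 5 immunoproteasome genes and 0 of 42 others, against 4.11% of all genes) or a STAT6 motif (0 of 5 and 0 of 42, against 3.3%). An AP-1 motif was found at 0 of 5 and 2 of 42 (Psmb5, and Psmd1 at its summit inside the gene), against 5.75%. A PU.1 motif was found at 0 of 5 and 2 of 42, against 3.97%. With backgrounds this low, few or no hits among 47 genes are near the share of all genes. The absence of a match says only that these letters are not within 100 bp of the summit.

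The IRF motif was found at 5 of 47 summits, comprising Psme1 among the 5 immunoproteasome genes and Psmb3, Psmd4, Psmd7 and Psmg4 among the 42 others, against 2.19% of all genes. Within 50 bp of the summit Psmb3 alone had it, 1 of 47 members, against 1.1% of all genes, and within 200 bp 8 members had it, Psme2 included, against 4.02%. The sites are printed in capitals within 30 bases on the gene's strand, because IRF factors mediate responses to interferon. They are chr14:55578493-55578522 on the + strand for Psme1, chr11:97703261-97703290 on the + strand for Psmb3, chr3:95042674-95042703 on the - strand for Psmd4 and chr13:34162969-34162998 on the + strand for Psmg4.
Psme1: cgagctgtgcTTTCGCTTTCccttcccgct
Psmb3: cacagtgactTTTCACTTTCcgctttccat
Psmd4: taaccaaccTTTCCATTTCtgtggcgccta
Psmg4: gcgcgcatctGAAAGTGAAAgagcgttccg
The middle of the Psme1 site lay 22 bp after the closest start and 84 bp after the summit. Relative to the closest start, the middle of the site was at 20 bp in Psmg4, at -75 bp in Psmd4, at -79 bp in Psmd7 and at -123 bp in Psmb3.

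The CCAAT box was found at 1 of 5 immunoproteasome genes (Psmb9) and 13 of 42 others, against 34.6%. The ARE was found at Psmb10 (summit inside the gene) and at 5 of 42 others (Psmb2, Psmb5, Psmb6, Psmd9 and Psme4), against 12.1%. This comparison depended on the window, since within 200 bp the ARE was found at Psmb10 and at 13 of 42 others, against 20.1%. The SP/KLF box was found at 1 of 5 and 7 of 42, against 19.1%, the NRF1 motif at 0 of 5 and 3 of 42, against 4.43%, and the YY1 motif at 0 of 5 and 3 of 42, against 2.48%.

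**Figure D4:**
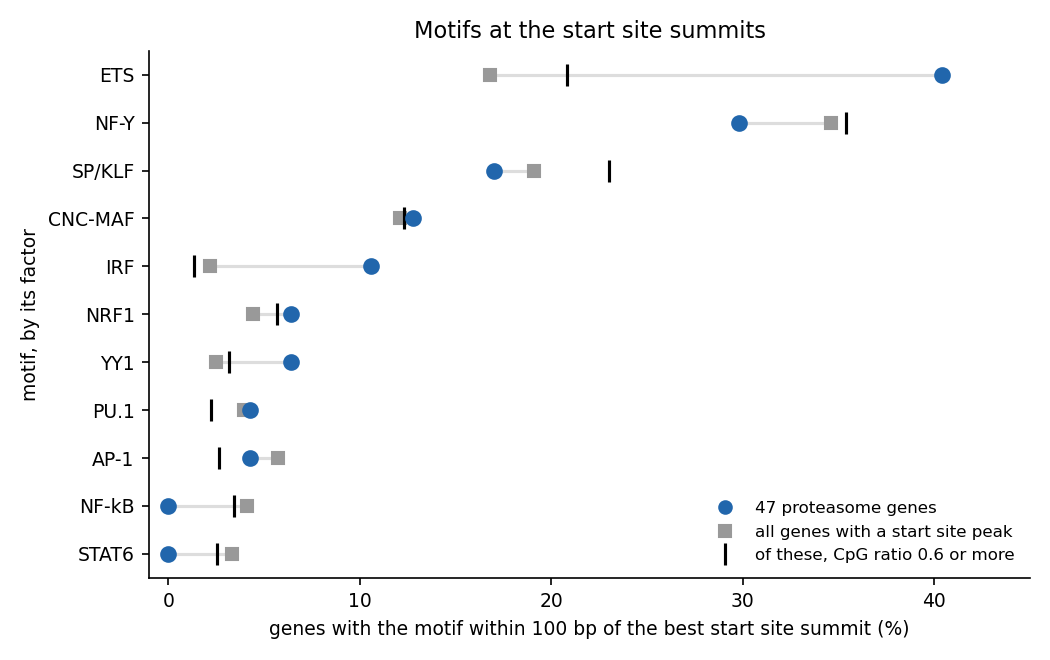
Share of genes (x axis, percent) with each of 11 motifs (y axis, named by factor, with CNC-MAF for the antioxidant response element and NF-Y for its box) within 100 bp of the best start site summit. Blue points are the 47 proteasome genes, grey squares all 12402 genes with a start site peak and black ticks those with a CpG ratio of at least 0.6. The ETS box has the widest gap, 40.4% against 16.8%.

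In distal regions within 50 kb, macrophage and stimulus motifs were counted at the best summit of each region. Of the 15 distal regions around immunoproteasome genes, 1 held an IRF motif (4.07% of all distal regions of the catalog), 1 an NF-kB motif (5.66%), 1 a STAT6 motif (7.88%), 1 a PU.1 motif (11.6%) and 2 an AP-1 motif (24.9%). Of the 163 distal regions around the other members, 5 held an IRF motif, 9 an NF-kB motif, 20 a STAT6 motif (12.3%), 18 a PU.1 motif and 33 an AP-1 motif. All 3 regions with an IRF, NF-kB or PU.1 motif around immunoproteasome genes lay in the Psmb8 window, and the region with a STAT6 motif lay in the Psmb10 window.

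Genes that work with the proteasome were read from a list of related genes. All 24 listed genes found in the annotation had a start site peak, against 56.5% of all protein-coding genes, and the median best score of all genes with such a peak was 1456. The 7 proteasome genes with other symbols had a median best score of 1260, from 1002 for Sem1 to 2061 for the deubiquitinase Uchl5. The 7 genes that regulate proteasome genes had a median of 1916, among them Nfe2l1 (2100), the CNC factor that drives proteasome genes, and Mafk (2153), a small MAF partner whose gene lies within 50 kb of Psmg3. The 10 genes of peptide loading and MHC class I had a median of 1780, from 1013 for Tap2 to 2153 for Calr, with 1721 for B2m. These 10 genes had a median of 11.5 extended regions within 50 kb (range 3 to 19), against 9 for the immunoproteasome genes. The median was 4 for the proteasome genes with other symbols and 8 for the regulators.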

How the data were processed

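Accessible chromatin was profiled by ATAC-seq with single-end reads of 76 bases. Per the study's methods, adapters were removed with BBDuk, reads were trimmed with Trimmomatic and aligned to mm10 with ShortStack, and peaks and summits were called with MACS2. Peaks were called per library, and the reference set kept those that passed a q-value cutoff and a minimum overlap between replicates. The submitters' processing notes name Trimmomatic 0.39, SAMtools 1.9 and MACS2 2.2.6. Duplicates were kept, so that a score can include PCR copies. The methods mention no correction for the Tn5 offset, and a summit can lie beside the cut sites. The authors deposited 3 lists combined over all libraries, with positions and, for summits, a score of unstated scale. 0 columns belonged to other samples.

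Members and lists were chosen with earlier results of these data known. Distances were computed with Python 3.11.15 against GENCODE M21 (coding genes on primary chromosomes), and sequence was read with pysam 0.24.0. Ties in the best score went to the lowest position. The functions were tested on simulated data. Genes named were the immunoproteasome genes and their counterparts, members with no start site peak, the 5 highest and 5 lowest scores, the 3 highest and 3 lowest region counts, members sharing a peak, Psmc3ip, Psme2b and listed related genes; members named beyond these were chosen after their values were seen. The values of 1 further motif are not reported here. No test was made, because genes are not replicates and no list has library columns. Alternatives comprised other windows, starts, peak thresholds and region types.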

Additional observations from a re-analysis of the deposited data

How the results depend on the processing

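Of 44 alternatives for peak, score and region values, 34 stayed close to the reported value and 10 moved. Close means within 1.5 times for counts and for medians of the 5 immunoproteasome genes, which are too few for a 95% binomial interval of the median, and within that interval for the other members. All 10 concern extended regions. For the other members, whose median was 7, the median became 3 within 20 kb, 12 within 100 kb, 9 with reference peaks counted, 9 with summits counted and 3 with distal regions only. For the immunoproteasome genes, whose median was 9, it became 5 within 20 kb, 19 within 100 kb, 14 with reference peaks counted, 16 with summits counted and 2 with distal regions only. Without Psmc3ip, the other members had a median score of 1518 and a median of 6.5 regions. RefSeq starts and the background of genes with a high CpG ratio were chosen after seeing the data. Of 44 alternatives for motif counts, 12 moved by more than 1.5 times, all of them from counts of 5 genes or fewer. Within 200 bp, an ARE was found at 13 of 42 other members, against 20.1% of all genes, and an NF-kB motif at 2 of 42, against 7.52%. No paired analysis was possible because the lists have no column per library, although the labels number the libraries of each group, and no library could be left out for the same reason. With depth unknown, a missing peak cannot be told from one below the calling threshold or one not shared between replicates.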
